A study of Danio rerio with 54 samples.

Results

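Photoreceptors pass their signal on at ribbon synapses, where a protein plate tethers glutamate-filled vesicles beside calcium channels so that transmitter can leave the terminal continuously in darkness. Transcripts for this machinery were followed here through light-induced loss and regeneration of photoreceptors in the adult zebrafish retina. The genes were chosen by name, as 10 genes encoding parts of this synapse, and 8 of them were read from tables of 15245 genes. They are the channel gene cacna1fb, the ribbon genes ctbp2a and ctbp2l, the vesicle genes syt5b, slc17a7a, cplx4a and cplx4c, and the recycling gene synj1. A second channel gene, cacna1fa, and the vesicle gene sv2bb were not analysed here.

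The data were 3′ mRNA sequencing of 54 single retinas of albino zebrafish aged 6 to 9 months, with 6 retinas in each of 9 groups. The labels of the naïve libraries give a single age within that range, and those of the other groups give none. Naïve fish lived under a cycle of 14 h of light and 10 h of darkness and saw no lesion. The 0 h fish spent 5 days in darkness and none of them saw the lesion, whereas all other fish received those 5 days of darkness, then 30 min of light at about 100000 lux and up to 3 days of halogen light at about 10000 lux. They were sampled at 24, 36 and 72 h post-light (hpl) and at 5, 10, 14 and 28 days post-light (dpl), counted from light onset, and those sampled after 72 hpl had returned to the daily cycle. The time-course was run as 2 experiments of 3 retinas per group. By their raw file names, replicates 1 to 3 belonged to the first, here experiment 1, and the rest to experiment 2. Since each library is a whole retina, fewer cells of a type and less RNA per cell cannot be told apart.

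Levels are given as the authors' pseudo-counts, which are read counts brought toward a common library size. Tests within the time-course used edgeR's quasi-likelihood test on the raw counts, with calls made over 13075 genes at a threshold of 0.05 on the Benjamini-Hochberg adjusted p. Libraries held 1111503 to 4040445 counted reads, except 5 dpl replicate 2 with 228611, which is 9.06% of the median of the other 5 dpl libraries. Of the 8 genes, 7 passed the filter on low counts. The tissue label was checked on photoreceptor markers. The 12 rod markers summed to 60495 to 105586 pseudo-counts at 0 h and 5054 to 9193 at 72 hpl, and the 18 cone markers to 84785 to 133969 and 3323 to 5989.

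All 7 genes tested fell by 24 hpl, with log2 fold changes from −0.81 for synj1 to −2.66 for cplx4c. The complexin genes cplx4a and cplx4c had the largest drops of the 7 and were still lower than 0 h at 5 dpl. By then syt5b stood above its 0 h level in every retina, and ctbp2a was also higher than at 0 h. From 10 dpl on, cplx4a was the gene called lower than 0 h at each later time, and ctbp2a was called higher at 14 and 28 dpl. The 0 h retinas came straight from 5 days of darkness. In any difference from them, the lesion and the change of lighting cannot be told apart.

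**Figure D1:**
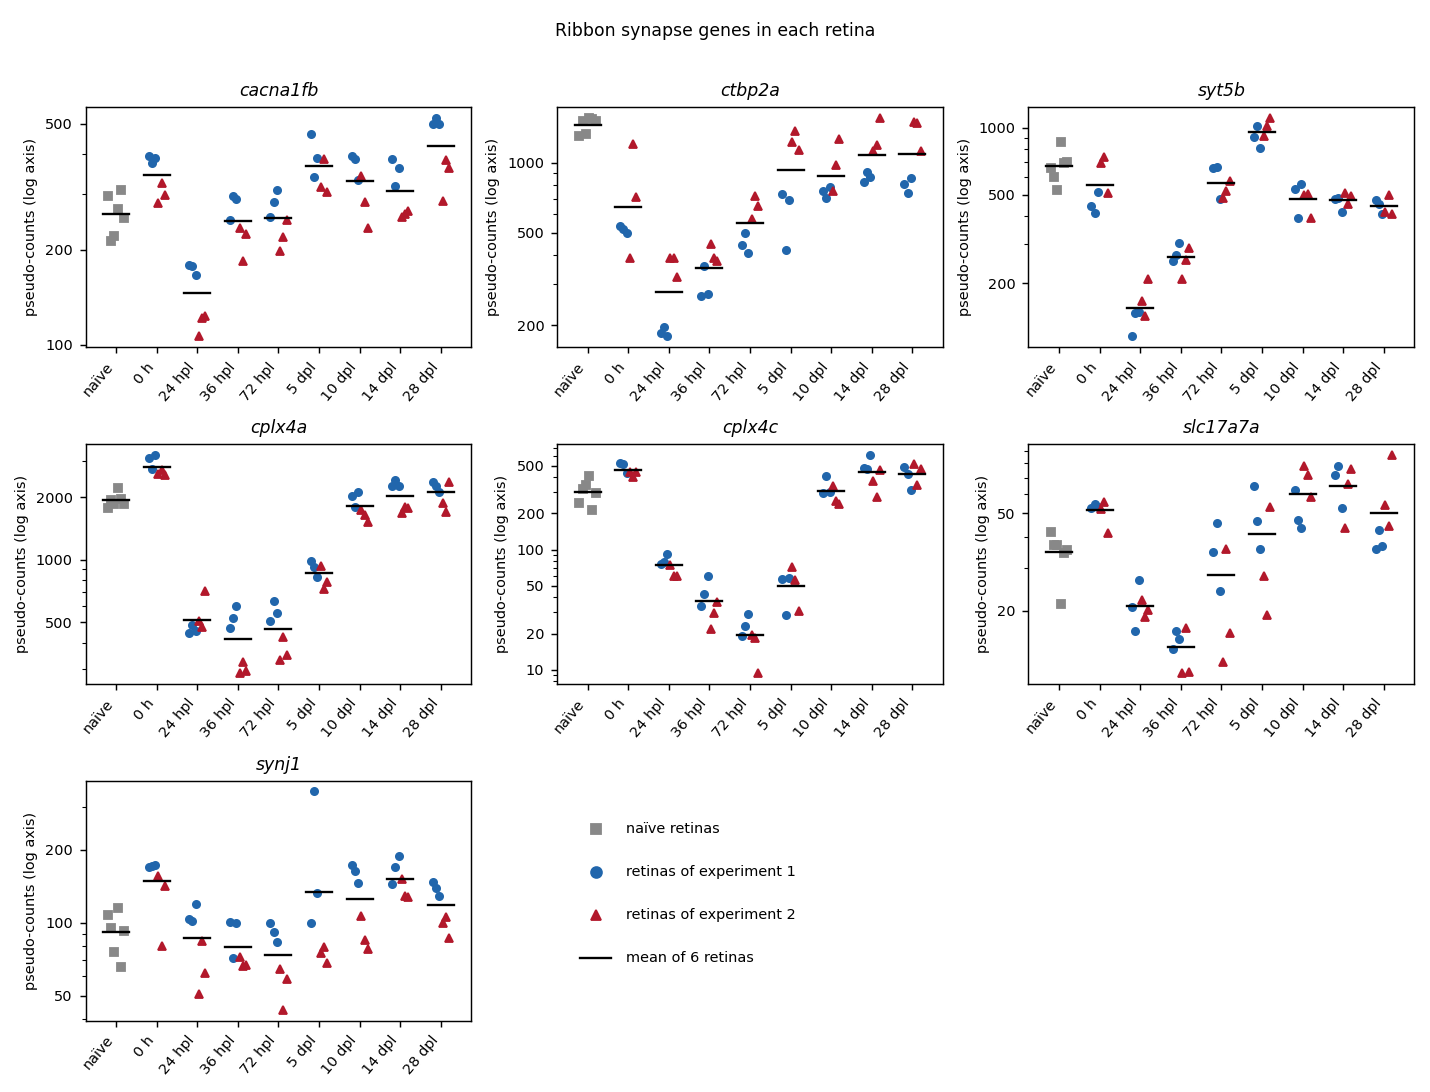
Pseudo-counts of the 7 tested genes in each retina (log axis, a separate scale per gene) for the 9 groups, with circles for experiment 1, triangles for experiment 2, squares for naïve retinas and a bar at the mean of 6 retinas. The drop at 24 hpl is seen in each panel, and syt5b alone has all 6 of its 5 dpl retinas above all 6 of its 0 h retinas.

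cplx4c encodes a complexin, a small protein that binds the assembled fusion complex at the vesicle, and complexins of this subfamily are found at retinal ribbon synapses in mammals. Its 0 h retinas ran from 402 to 527 pseudo-counts, with a median of 444. The lesioned retinas ran from 60.3 to 92.3 at 24 hpl (median 75.0), from 21.6 to 60.3 at 36 hpl (median 35.4) and from 9.38 to 28.8 at 72 hpl (median 19.1). No lesioned retina of these times reached the lowest 0 h retina, and the mean at 72 hpl was 4.26% of the 0 h mean. Against 0 h the log2 fold change was −2.66 at 24 hpl, −3.64 at 36 hpl and −4.53 ± 0.20 (standard error, SE) at 72 hpl, with an edgeR adjusted p of 6.3e-26 at 72 hpl. Both later steps of this descent were themselves called, by −0.98 from 24 to 36 hpl and by −0.89 from 36 to 72 hpl (edgeR adjusted p = 0.00012 and 0.0020), though experiment 2 alone did not call the second (−0.88, adjusted p = 0.11). At 5 dpl the retinas ran from 28.3 to 71.2 (median 56.3), where replicate 2 rests on 3 reads. The largest step upward lay between 5 and 10 dpl, when cplx4c rose by a log2 fold change of 2.51 ± 0.18 SE to 239 to 408 pseudo-counts (median 297, edgeR adjusted p = 5.6e-16), and the 2 groups did not overlap. It was still called lower than 0 h at 10 dpl (−0.61, edgeR adjusted p = 0.0074), a call that neither experiment gave alone (adjusted p = 0.072 and 0.084). At 14 and 28 dpl it ran from 273 to 615 and from 312 to 511, and the log2 fold changes against 0 h were −0.07 and −0.12, neither called.

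cplx4a encodes a second complexin of the same subfamily. The 0 h retinas ran from 2571 to 3208 pseudo-counts (median 2720), and those at 24 hpl from 444 to 707 (median 479.5). At 36 hpl the range was 285 to 602 (median 396) and at 72 hpl 329 to 637 (median 465), so its 3 early groups overlapped one another. The log2 fold changes against 0 h were −2.45, −2.80 and −2.60 at 24, 36 and 72 hpl, each with SE 0.14 and called by edgeR (adjusted p = 1.3e-21, 5.6e-24 and 6.8e-23). The step from 24 to 36 hpl was −0.34 and not called (edgeR adjusted p = 0.084), but it was called without 24 hpl replicate 1, without 24 hpl replicate 3 or without 36 hpl replicate 3 (adjusted p = 0.040, 0.048 and 0.022). DESeq2 on all libraries also called it (−0.35, adjusted p = 0.039). The step was 0.21 in experiment 1, not called, and −0.92 in experiment 2, where edgeR called it (adjusted p = 0.00015). That difference between the experiments was not tested. cplx4a then rose by 0.89 from 72 hpl to 5 dpl and by 1.06 from 5 to 10 dpl, and in both steps the later retinas all lay above the earlier ones. At 28 dpl the 6 retinas ran from 1694 to 2382 (median 2205) and none reached the lowest 0 h retina. Against 0 h its log2 fold change came to −0.65 at 10 dpl, −0.49 at 14 dpl and −0.43 at 28 dpl (edgeR adjusted p = 0.00025, 0.0076 and 0.028). The 28 dpl call was lost without 0 h replicate 3 or 28 dpl replicate 3 (adjusted p = 0.0503 and 0.067) and in either experiment alone (0.065 and 0.089), and the 14 dpl call in experiment 1 alone (0.096). In a fit with no experiment term neither the 14 dpl nor the 28 dpl difference was called (adjusted p = 0.056 and 0.13). Naïve retinas, however, held 1774 to 2214, and also lay below every 0 h retina.

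**Figure D2:**
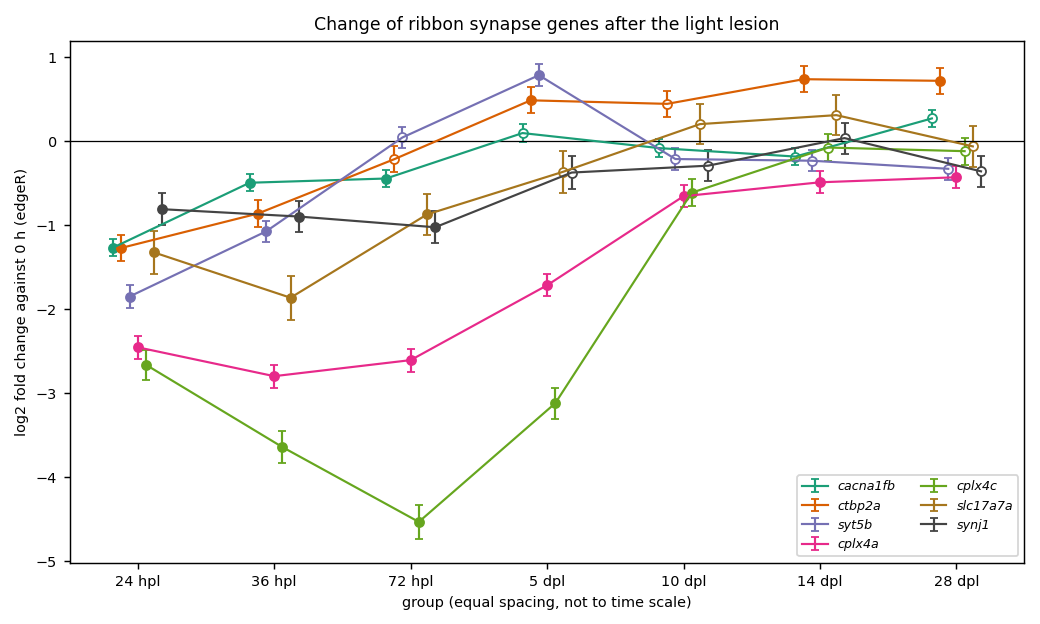
Log2 fold change of each of the 7 genes against 0 h at the 7 times after light (edgeR), with bars of 1 standard error, filled points where the gene was called at adjusted p under 0.05 and open points where it was not. The complexin genes lie lowest through 5 dpl, with cplx4c at −4.53 at 72 hpl, while syt5b is at 0.05 at 72 hpl and 0.79 at 5 dpl.

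The complexin genes therefore changed their balance, which was tested as the ratio of cplx4a to cplx4c within each retina. Only the change of the ratio is read, since the number of 3′ tags a transcript yields differs between genes. The log2 ratio was 2.61 ± 0.17 (SD, n = 6) at 0 h and 2.77 ± 0.43 at 24 hpl (a difference of 0.16, two-sided exact permutation test, p = 0.47, adjusted 0.63 over 8 tests), with −0.15 in experiment 1 and 0.48 in experiment 2. It then moved to 3.44 ± 0.29 at 36 hpl, 4.53 ± 0.38 at 72 hpl and 4.15 ± 0.54 at 5 dpl. At each of these times all 6 retinas lay above all 6 at 0 h, so the exact permutation p was 0.0022, the smallest that 6 against 6 retinas can give, and 0.0058 after adjustment. The shift of 1.92 at 72 hpl stood at 1.93 and 1.92 in experiments 1 and 2. At 5 dpl it was 1.54, and 1.37 without the shallow replicate 2. The ratio was back at 2.58 ± 0.27 by 10 dpl (−0.03 from 0 h, exact permutation p = 0.84), and at 14 dpl it was 2.22 ± 0.30 (−0.39, exact permutation p = 0.028, adjusted 0.056). The naïve ratio ran from 2.43 to 3.19 and its mean was 0.09 from that of 0 h (exact permutation p = 0.58).

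**Figure D3:**
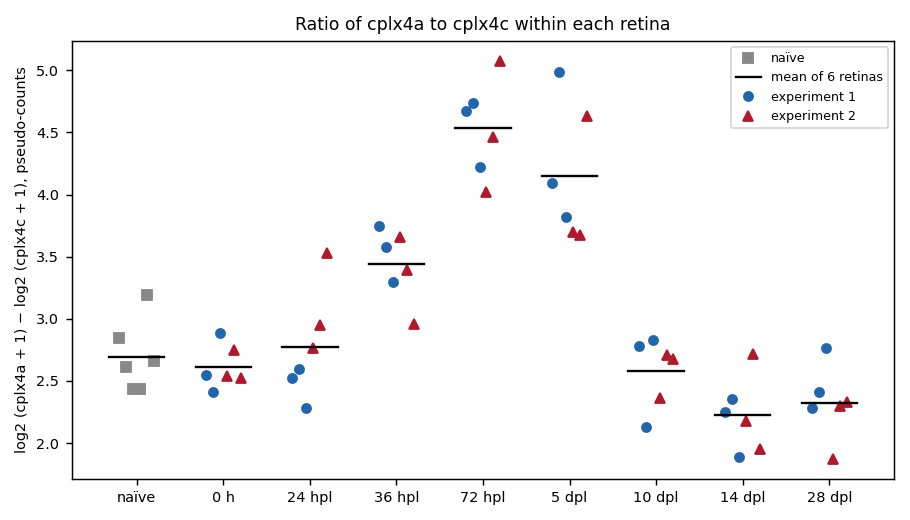
Log2 ratio of cplx4a to cplx4c within each retina, from pseudo-counts plus 1, for the 9 groups, with circles for experiment 1, triangles for experiment 2, squares for naïve retinas and a bar at the mean of 6. The retinas at 36 hpl, 72 hpl and 5 dpl all lie above those at 0 h, and the mean runs from 2.61 at 0 h to 4.53 at 72 hpl.

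syt5b encodes a synaptotagmin, a member of the family of vesicle proteins that includes the calcium sensors for release. At 0 h its retinas ran from 415 to 737 pseudo-counts (median 508), and at 24 hpl from 115 to 208 (median 147), well apart from them. It fell by 1.85 ± 0.13 SE on the log2 scale (edgeR adjusted p = 4.1e-17). It rose at every step thereafter until 5 dpl, by 0.77 to 36 hpl, by 1.12 to 72 hpl and by 0.74 to 5 dpl, each called by edgeR (adjusted p = 1.7e-05, 1.8e-09 and 1.5e-05) and each with no overlap between the 2 groups, although experiment 2 alone did not call the first (0.52, adjusted p = 0.061). The range was 209 to 303 at 36 hpl (median 260.4), 477 to 662 at 72 hpl (median 547) and 810.4 to 1101 at 5 dpl (median 965). At 72 hpl, when cplx4c was at its lowest, syt5b was 0.05 ± 0.13 SE from 0 h, with 0.41 in experiment 1 and −0.27 in experiment 2, and at 5 dpl it stood at 174% of the 0 h mean. The 5 dpl difference from 0 h was 0.79 ± 0.13 SE (edgeR adjusted p = 1.9e-06) and was called in both experiments, at 0.97 and 0.64. Between 5 and 10 dpl syt5b fell (edgeR adjusted p = 3.1e-08), to 86.9% of the 0 h mean and again with no overlap, while cplx4a and cplx4c rose. Its ranges at 10, 14 and 28 dpl were 391 to 556, 415 to 508 and 408 to 497, and the differences from 0 h of −0.21, −0.23 and −0.33 were not called, but DESeq2 called the last (−0.36, adjusted p = 0.043), as did edgeR on experiment 2 alone (−0.59, adjusted p = 0.039).

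ctbp2a is one of the zebrafish genes for CtBP2. In vertebrates such a gene encodes both a nuclear corepressor, which many cell types use, and, from another start, Ribeye, the main scaffold of the ribbon. The 2 products share their 3′ part, so 3′ tags do not separate them. The 0 h retinas ran from 387 to 1206 pseudo-counts (median 527), a wide spread in which replicate 5 was the highest and replicate 4 the lowest. At 24 hpl the range was 179 to 390 (median 259.7), which overlapped that of 0 h, and the log2 fold change was −1.27 ± 0.16 SE (edgeR adjusted p = 2.1e-09). It was −0.86 at 36 hpl and −0.21 at 72 hpl, where it was not called (edgeR adjusted p = 0.28, but −0.34 and 0.047 without 0 h replicate 4). The rise from 36 to 72 hpl (0.65, edgeR adjusted p = 0.0021) and that from 72 hpl to 5 dpl (0.70, edgeR adjusted p = 0.00079) were both called, the first not by experiment 2 alone and the second not by experiment 1 alone (adjusted p = 0.079 and 0.080). The later differences from 0 h were 0.49, 0.45, 0.74 and 0.72 at 5, 10, 14 and 28 dpl (edgeR adjusted p = 0.012, 0.054, 0.00066 and 0.0012), so all but the 10 dpl one were called. In a fit with no experiment term none of them was called (adjusted p = 0.11, 0.059 and 0.080 at 5, 14 and 28 dpl, the times called above). The 5 dpl call was lost without 0 h replicate 4 (adjusted p = 0.056) and in experiment 1 alone (0.27, adjusted p = 0.28), and the 10 dpl difference was called without 0 h replicate 5 or 10 dpl replicate 4 (adjusted p = 0.0072 and 0.021). It was also called by DESeq2, by limma on pseudo-counts and by edgeR with no filter on low counts (adjusted p = 0.047, 0.032 and 0.049). Even at 28 dpl, where the range was 741 to 1504 (median 995), only 2 of 6 retinas lay above the highest 0 h retina. Its mean was higher in experiment 2 than in experiment 1 in all 8 time-course groups, by 1.33 to 2.03 times.

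ctbp2l, a related gene, was hardly read at all. It had 8 reads over 48 libraries, in 5 of them, with at most 3 in a library, and it was at 0 in every naïve retina. It was below the count floor in all groups, and no change of it can be given at this depth.

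cacna1fb is a zebrafish counterpart of the mammalian gene for the pore subunit of Cav1.4, the calcium channel that opens at the ribbon in darkness. The second channel gene, cacna1fa, was not analysed, and whole retinas do not show which cells the cacna1fb transcripts came from. cacna1fb ran from 282 to 394 pseudo-counts at 0 h (median 349.8) and from 106 to 178 at 24 hpl (median 145). The ranges did not overlap, and the gene fell by 1.26 ± 0.11 SE (edgeR adjusted p = 7.2e-15). It had recovered in part by 36 hpl, to 184 to 296 (median 240.5), with all 6 retinas above those at 24 hpl (0.77, edgeR adjusted p = 1.2e-07). It was still lower than 0 h at 36 and 72 hpl, by −0.49 and −0.44 (edgeR adjusted p = 6.9e-05 and 0.00037), and the 72 hpl call was not given by experiment 2 alone (−0.41, adjusted p = 0.051). After a rise of 0.54 from 72 hpl it was at 304 to 463 at 5 dpl (median 363), and 0.10 from the 0 h level. At 28 dpl it ran from 284 to 521 (median 441), higher than at 14 dpl by 0.45 (edgeR adjusted p = 0.012), although neither experiment alone called that step, and 0.27 from 0 h, which was not called (edgeR adjusted p = 0.087). The experiment 2 mean was 0.673 to 0.845 times that of experiment 1 in the 8 groups.

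slc17a7a encodes a vesicular glutamate transporter, which loads transmitter into synaptic vesicles. It was read at low depth, with 7 to 97 reads per library. The 0 h range of 41.6 to 55.7 pseudo-counts (median 52.8) stood apart from 16.5 to 26.8 at 24 hpl (median 20.4) and 11.1 to 17.1 at 36 hpl (median 14.6). The log2 fold changes were −1.32 ± 0.26 SE and −1.86 ± 0.26 SE (edgeR adjusted p = 3.0e-05 and 3.0e-08). At 72 hpl the retinas spread from 12.3 to 45.6 (median 29.4), and the difference of −0.87 was called (edgeR adjusted p = 0.0034) but not in experiment 1 alone (−0.61, adjusted p = 0.068). The rise of 0.99 from 36 to 72 hpl was called over both experiments (edgeR adjusted p = 0.0061) and in experiment 1, whereas experiment 2 gave 0.66 with an adjusted p of 0.43. From 5 dpl on no difference from 0 h was called, with values of −0.36, 0.21, 0.31 and −0.06 at 5, 10, 14 and 28 dpl, and the step from 5 to 10 dpl (0.57, edgeR adjusted p = 0.13) was called only without 5 dpl replicate 1 (0.77, adjusted p = 0.041).

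synj1 encodes synaptojanin 1, a phosphoinositide phosphatase of vesicle recycling whose loss in zebrafish disturbs the cone synapse. It had the smallest drop at 24 hpl, from 79.8 to 172 pseudo-counts at 0 h (median 163) to 50.7 to 119 (median 92.4), and the ranges overlapped. The log2 fold change of −0.81 ± 0.19 SE at 24 hpl (edgeR adjusted p = 0.00046) was not called in experiment 1 alone (−0.62, adjusted p = 0.082). It was −0.89 at 36 hpl and −1.02 at 72 hpl, where the range was 43.7 to 99.4 (median 73.9, edgeR adjusted p = 1.3e-05). The values at 5 dpl turned on the shallow library. That retina, replicate 2, was at 348 pseudo-counts and the other 5 between 68.1 and 133. With it the gene was −0.37 from 0 h (edgeR adjusted p = 0.14) and had risen by 0.65 from 72 hpl (adjusted p = 0.017). Without it the values were −0.67 (adjusted p = 0.00018) and 0.35 (adjusted p = 0.11), and the call of the rise was also lost without 72 hpl replicate 5 (adjusted p = 0.053), in experiments 1 and 2 alone (0.070 and 0.49) and with no experiment term (0.11). At 10, 14 and 28 dpl the differences of −0.29, 0.04 and −0.36 from 0 h were not called.

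Counted together, all 7 genes were lower than 0 h at 24 hpl, where 17.7% of all genes tested were lower, and all 7 at 36 hpl, against 23.4% of all genes. At 72 hpl 5 of 7 were lower (20.2% of all genes), the others being syt5b and ctbp2a. At 5 dpl 2 of 7 were lower (14.3% of all genes), namely the complexin genes, and 2 were higher (17.5% of all genes), namely syt5b and ctbp2a. Without the shallow 5 dpl replicate 2, synj1 was called lower at 5 dpl as well (−0.67, edgeR adjusted p = 0.00018). At 10 dpl 2 of 7 were lower (2.85%), again the complexin genes. At 14 dpl cplx4a was lower (4.67%) and ctbp2a higher (8.50%), and at 28 dpl the same 2 genes were called in the same directions (3.36% lower and 4.72% higher over all genes). The 7 comparisons share the 0 h retinas. The median log2 fold change of the 7 genes was −1.32 at 24 hpl and −0.36 at 5 dpl, against −0.10 and −0.02 over all genes.

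From step to step the genes also parted. From 24 to 36 hpl cacna1fb and syt5b rose (6.20% of all genes did) while cplx4c fell (5.25%). From 36 to 72 hpl syt5b, slc17a7a and ctbp2a rose (6.68%) while cplx4c fell further (5.92%). From 72 hpl to 5 dpl 6 of 7 rose (6.54%), or 5 without the shallow 5 dpl replicate 2, which ends the call of synj1, and slc17a7a at 0.51 was not called. From 5 to 10 dpl cplx4a and cplx4c rose (5.75%) and syt5b fell (6.81%). None was called from 10 to 14 dpl by edgeR, DESeq2 or limma, when 0.0612% of all genes were called, and 1 had an unadjusted p under 0.05 (cplx4c, 0.54). From 14 to 28 dpl cacna1fb rose (0.314%). Whether the change from 0 h differed between experiments was tested in 49 cases, 7 genes at 7 times, and none was called by edgeR. The smallest edgeR adjusted p was 0.12, for cplx4a at 36 hpl. Over all genes the same test called 10, 148 and 102 at 24, 36 and 72 hpl. At 5, 10, 14 and 28 dpl it called 134, 8, 3 and 59. Few genes of any kind were called, so the lack of a call here does not show that the experiments agreed. In 7 cases the unadjusted edgeR p was under 0.05. These 7 were all of cplx4a (24, 36 and 72 hpl) and syt5b (36 and 72 hpl, 10 and 28 dpl). For syt5b the change was lower in experiment 2 at those times, by −0.65, −0.69, −0.57 and −0.50, and also at the other times after light. These comparisons all share the same 0 h retinas, where the experiment 2 mean of syt5b was 1.41 times that of experiment 1. In the groups after light it was 0.88 to 1.26 times, so the values are not separate findings.

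The order of the 8 time-course groups differed by gene as well. syt5b had 5 dpl on top, above 72 hpl (edgeR adjusted p = 1.5e-05), then 72 hpl, 0 h, 10, 14 and 28 dpl with no neighbours that differed, then 36 hpl and, lowest, 24 hpl, each below the group before it. The ends of the run from 72 hpl to 28 dpl did differ, with 28 dpl lower by −0.37 (edgeR adjusted p = 0.018). cplx4c had 0 h, 14, 28 and 10 dpl on top without a called difference between neighbours, then a gap of 2.05 (edgeR adjusted p = 1.9e-14) to 24 hpl, and 72 hpl lowest, below 36 hpl. cplx4a had 0 h alone on top, above 28 dpl, and 24, 72 and 36 hpl lowest with no neighbours that differed. ctbp2a had 28, 14, 5 and 10 dpl above 0 h, but the only neighbours in its order that differed were 72 and 36 hpl (edgeR adjusted p = 0.0021). cacna1fb had 28 dpl highest and 24 hpl lowest, and its neighbours differed between 14 dpl and 72 hpl (adjusted p = 0.046) and between 36 and 24 hpl. For slc17a7a, highest at 14 dpl and lowest at 36 hpl, and synj1, highest at 14 dpl and lowest at 72 hpl, no 2 neighbours differed. Over all 28 pairs of groups edgeR called 22 for each complexin gene, 19 each for cacna1fb, ctbp2a and syt5b, 15 for slc17a7a and 13 for synj1.

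Other genes of the release machinery were lower at the same times. Of 27 further genes tested (fusion proteins, channel partners, vesicle and recycling proteins), 20 were lower and 0 higher at 24 hpl. At 36 hpl 24 were lower, at 72 hpl 25 and at 5 dpl 16, again with 0 higher. The medians at these times were −0.82, −1.21, −1.04 and −0.47. Of all genes tested, 17.7%, 23.4%, 20.2% and 14.3% were lower at the same times. At 72 hpl another complexin gene, cplx4b, was at −5.07 and cabp4, a calcium-binding partner of the channel, at −3.63. The channel's beta subunit gene cacnb2b was at −2.31 and the fusion protein gene vamp2 at −1.28. A further complexin gene on this list, cplx3b, changed far less, with means of 233 pseudo-counts at 0 h and 179 at 72 hpl. At 28 dpl 5 of the 27 were lower (3.36% of all genes were) and 0 higher. Among them were cplx4b (−1.59, edgeR adjusted p = 8.2e-07), sv2ba, a vesicle protein gene (−0.96), amph, which encodes an endocytic protein (−0.61), and cabp4 (−0.57). On the bipolar cell side of the synapse, 6, 7 and 5 of 10 postsynaptic genes were lower at 24, 36 and 72 hpl, 1 at 5 dpl and 0 from 10 dpl on, with medians of −0.86, −0.94, −0.56 and −0.27 through 5 dpl. trpm1a and trpm1b, which encode the channel of ON bipolar cells, were at −1.67 and −2.18 at 24 hpl. Genes of conventional synapses, used by amacrine cells among others, were lower in 7, 11 and 7 of 14 at 24, 36 and 72 hpl and in 2 at 5 dpl (with 1 higher), with medians of −0.55, −0.94, −0.60 and −0.30. At 36 hpl their median was near the −1.07 of the ribbon synapse genes.

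**Figure D4:**
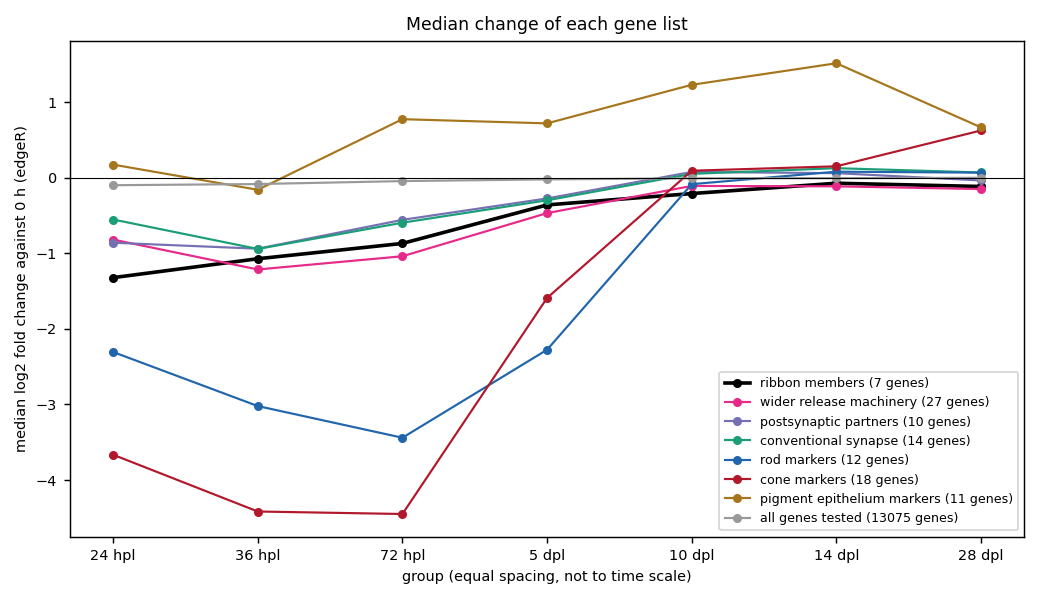
Median log2 fold change against 0 h (edgeR) of the 7 ribbon synapse genes, of further gene lists and of all 13075 genes tested, at the 7 times after light. At 24 hpl the ribbon synapse genes (−1.32) lie between the conventional synapse genes (−0.55) and the rod and cone markers (−2.31 and −3.67), whereas at 10 dpl they (−0.21) lie below all 3 of these lists (0.05, −0.09 and 0.09).

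Markers of the cells that carry these synapses moved at the same time. Of all 13075 genes tested, 2308 were lower and 2483 higher at 24 hpl, and 3061 and 3080 at 36 hpl. At 72 hpl 2643 were lower and 2971 higher, and at 5 dpl 1868 and 2293. Of the 12 rod markers 11 were lower and 1 higher at 72 hpl, with a median of −3.44, and again 11 and 1 at 5 dpl, at −2.28. All 18 cone markers were lower at 24 and 72 hpl (medians −3.67 and −4.45), and 13 of 18 at 5 dpl, with 1 higher (−1.59). By 10 dpl the medians were −0.09 and 0.09. So cplx4c (−4.53 at 72 hpl) fell as far as the cone markers in the middle of their list, whereas syt5b and ctbp2a (0.05 and −0.21) were not called at 72 hpl. Bipolar cell markers, a cell type that also forms ribbons, were lower in 4 of 9 and higher in 4 of 9 at 72 hpl (median −0.02). Müller glia markers were lower in 4 and higher in 4 of 9 at both 24 and 36 hpl, lower in 1 and higher in 4 at 72 hpl, and higher in 6 and lower in 0 at 5 dpl. The part of these cell types in the result for any single gene was not tested.

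The level of ctbp2a was also set beside markers of a neighbouring tissue. The 11 pigment epithelium markers, from the pigmented layer that borders the photoreceptors and can stay attached in dissection, summed to 4418 to 9545 pseudo-counts at 0 h, 2255 to 9798 at 24 hpl, 11194 to 19743 at 14 dpl and 4718 to 20322 in naïve retinas. Against 0 h, 2 were lower and 2 higher at 24 hpl (median 0.17) and 2 lower and 5 higher at 36 hpl (−0.16), times at which ctbp2a was lower. At 72 hpl 1 was lower and 6 higher (0.77), when ctbp2a was at −0.21. From 5 dpl on none was lower and 6, 9, 10 and 4 of 11 were higher at 5, 10, 14 and 28 dpl (medians 0.72, 1.23, 1.51 and 0.67). Over all 13075 genes, 2293, 923, 1111 and 617 were higher at these times. Against naïve retinas all 10 tested were lower at 0 h (26.9% of all genes were). None of the 11 was at 0 in the group means. Among 6825 other genes with a group mean of at least 50 pseudo-counts, the profile (log2 change from 0 h over the 8 other groups, naïve included) nearest to that of ctbp2a was that of rgrb, a retinal G protein-coupled receptor gene on that list, at a root mean square difference of 0.22 log2 units. zgc:153441 (0.23) and tgfb3, a growth factor gene (0.25), came next. At 24 hpl rgrb did not follow the middle of its list. Its mean was 1778 pseudo-counts at 0 h and 628 at 24 hpl, when the list median was 0.17. The part of the pigment epithelium in the level of ctbp2a was not tested.

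Profiles nearest to 4 more of the genes were of mixed kinds. They were hp1bp3 (0.32), slc1a2b, a glutamate transporter gene (0.32), and gpm6ab, a neuronal membrane protein gene (0.32), for syt5b. They were ninl (0.19), mlc1 (0.25) and cep290 (0.26) for slc17a7a, of which ninl and cep290 encode proteins of the centrosome and cilium base. For cplx4a they were efna1b (0.30), zgc:162331 (0.30) and gnb5b (0.31), and for synj1 dtx2 (0.14), ampd3b (0.14) and shha (0.15). Profiles rest on group means, and the synj1 mean at 5 dpl (134 pseudo-counts, median 89.7) includes the shallow replicate 2 at 348. The synj1 distances were not computed without that library. Within the set each gene had only 6 candidates, against 6825 outside it. The nearest of many more candidates tends to lie closer, so the distances inside and outside the set cannot be compared. The nearest member of the set was 0.92 away for cplx4a (cplx4c), 0.70 for ctbp2a (syt5b), 0.54 for syt5b (cacna1fb), 0.43 for slc17a7a (synj1) and 0.40 for synj1 (cacna1fb).

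Dark-adapted and 28 dpl retinas were each set against naïve retinas by limma on log2 (pseudo-count + 1) over 11700 genes. Naïve libraries entered as pseudo-counts only, with totals of 2497761 to 2707270 against 1513697 to 2443195 in the time-course. No experiment is given for them, so the group and any batch it formed cannot be told apart. In 0 h retinas 5 of 7 genes were higher than naïve (26.5% of all genes were), namely synj1 (0.67), cplx4c (0.62), slc17a7a (0.59), cplx4a (0.54) and cacna1fb (0.40), while ctbp2a was lower (26.9% of all genes were). ctbp2a had the largest fold change of the 7. Its naïve retinas ran from 1302 to 1558 pseudo-counts (median 1515), above all 6 at 0 h, with a log2 fold change of −1.28 ± 0.21 SE (limma adjusted p = 2.7e-05). For cplx4a the 0 h retinas all lay above the naïve ones (limma adjusted p = 0.00037), and for the other 4 higher genes the ranges overlapped. The cacna1fb call (limma adjusted p = 0.026) was lost without naïve replicate 2 or 3 or 0 h replicate 1, 2 or 3, and the slc17a7a call (0.029) without naïve replicate 4 or 0 h replicate 2. syt5b was at −0.30 (limma adjusted p = 0.073) and was called lower without naïve replicate 3 or 0 h replicate 4 or 5. It was also called lower in a fit over all 54 libraries and with the replicate number as a block (limma adjusted p = 0.048 and 0.047).

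**Figure D5:**
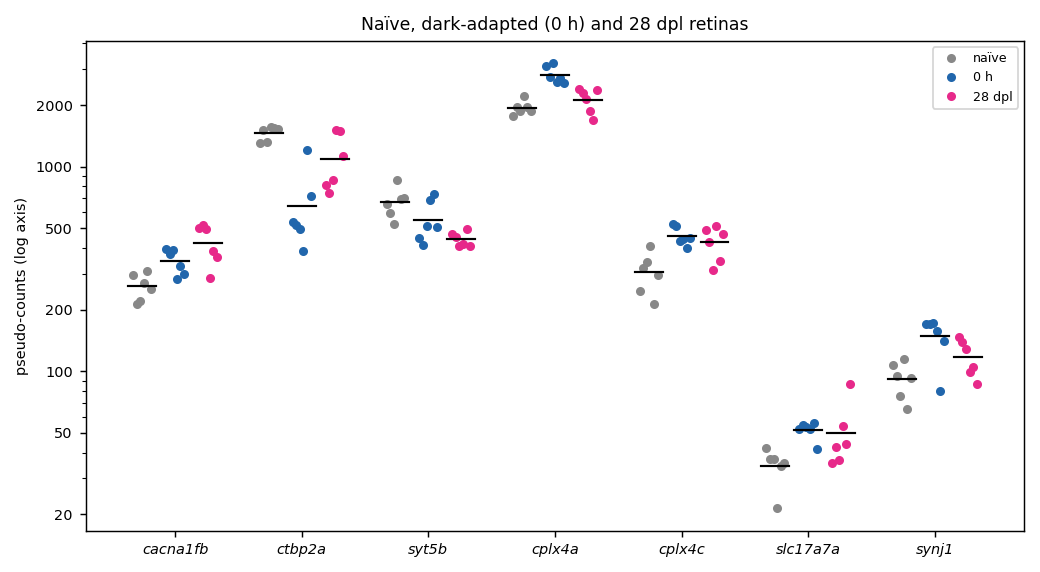
Pseudo-counts (log axis) of the 7 genes in naïve, 0 h and 28 dpl retinas, 6 points each, with a bar at each mean. All 6 naïve values of ctbp2a lie above those at 0 h, and all 6 naïve values of syt5b lie above those at 28 dpl.

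At 28 dpl cacna1fb (0.69) and cplx4c (0.49) were higher than naïve (19.7% of all genes were) and syt5b was lower (17.6% of all genes were), though a fit over all 54 libraries did not call cplx4c (limma adjusted p = 0.067). The naïve range of syt5b, 522 to 863 pseudo-counts (median 674), lay wholly above the 408 to 497 of 28 dpl, with a log2 fold change of −0.59 ± 0.14 SE (limma adjusted p = 0.0027). cplx4a, which stayed below 0 h, was 0.12 from naïve (limma adjusted p = 0.40). ctbp2a, which was above 0 h, was at −0.48 against naïve (limma adjusted p = 0.075), and it was called lower without 28 dpl replicate 4 or 5. These comparisons depended on scale. With every library set to the same pseudo-count total, the median of all genes moved by 0.35 at 28 dpl and 0.46 at 0 h. At 28 dpl 5 of the 7 genes were then called higher than naïve, where 3901 of 11842 genes tested were higher and 756 lower. cplx4a was among the 5 (0.48, limma adjusted p = 0.0039). On this scale ctbp2a was at −0.12 and not called (limma adjusted p = 0.58), and syt5b was at −0.23 and no longer called. At 0 h the same 6 genes were called in the same directions, with ctbp2a at −0.80 and syt5b at 0.18 in place of −0.30. Over all genes 5109 were then higher and 1374 lower at 0 h.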

How the data were processed

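The authors made 3′ mRNA libraries (QuantSeq) from 250 ng of RNA per retina, aligned the reads with STAR to build dR10, counted them per gene with HTSeq and used edgeR, with versions not given in the sources used here. The authors deposited raw counts for the 48 time-course libraries and, for all 54, a signal per gene, the edgeR pseudo-counts. The authors' own fold changes on a log2 scale, log2 CPM values, likelihood ratio scores and p-values were not used. The count tables hold no column without a sample.

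Counts were tested with edgeR 4.0.16 (trimmed mean of M-values, group and experiment terms, 48 libraries) and pseudo-counts with limma 3.58.1 (log2 of value plus 1, 18 libraries) in R 4.3.3, keeping a gene that reached 5 in 6 or more libraries. A standard error is the log2 fold change divided by the root of the F statistic. The ratio of cplx4a to cplx4c was tested by a two-sided exact permutation test over 924 arrangements. Further ratio tests that had been planned, for ctbp2a with ctbp2l and for the 2 channel genes, were not run. DESeq2 1.42.0 was an alternative, with Python 3.11.15. All 12 entries named by a date were left out. The p-values measure the spread between single retinas. Counts simulated from the libraries of 24 hpl against 0 h (11658 genes) recovered 59% of the 2-fold and 92% of the 4-fold changes put in. For 28 dpl against 0 h (11440 genes) the shares were 40% and 89%. False calls were 11 of 11458 and 7 of 11240 unchanged genes. Each simulation held only the libraries of the groups compared and no experiment effect. The shares therefore do not give the power of the tests over 48 libraries.

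Genes and lists were chosen with earlier results of these data known. All ribbon synapse genes were named. Of other lists, counts and up to 4 genes with the smallest adjusted p in a comparison were named, and the 3 nearest profiles for 5 of the ribbon synapse genes. The gene cplx3b was added outside this rule, to set it beside the other complexin genes. No sequence was used.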

Additional observations from a re-analysis of the deposited data

Results flagged for a closer look

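In 6 of 63 gene and group pairs the highest or lowest retina lay far from the other 5, by Dixon's 95% criterion on the gap over the group's range, and chance alone marks about 1 in 20 such groups. The shallow 5 dpl replicate 2 had synj1 at 348 pseudo-counts, where the next retina was at 133. 0 h replicate 5 had synj1 at 79.8, where the next was at 141. cplx4a was at 707 in 24 hpl replicate 6, with the next at 507. slc17a7a, the gene with the fewest reads among those tested, was marked in 3 groups, at 21.4 in naïve replicate 4 (next 34.3), at 41.6 in 0 h replicate 6 (next 52.2) and at 86.8 in 28 dpl replicate 6 (next 54.1).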

How the results depend on the processing

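Single genes were re-tested in 1260 cases with 1 library left out and 812 with another processing choice. Of these 1235 and 764 kept their direction and their side of the threshold, 12 and 28 lost a call, 13 and 20 gained one and 0 reversed a call, while 51 values that were not called changed sign. Counts of genes called moved in these settings. Without the experiment term 0 genes were called at 14 dpl and 0 at 28 dpl against 0 h, and 0 from 14 to 28 dpl, and unscaled library totals in place of trimmed mean of M-values gave 4 at 14 dpl. Experiment 1 alone called 1 at 10, 1 at 14 and 1 at 28 dpl against 0 h and 0 from 14 to 28 dpl, and experiment 2 alone 1 at 10 dpl, 1 from 36 to 72 hpl and 0 from 14 to 28 dpl, each with 3 retinas per group. Leaving out a library gave 1 to 2 at 28 dpl against 0 h, and equal totals 5 at 28 dpl against naïve. The complexin ratio at 14 dpl was −0.39 with a pseudocount of 5 or from raw counts (exact permutation, adjusted p = 0.048 and 0.049). With the replicate number as a block in place of the experiment, 7, 7, 5, 4, 3, 2 and 2 genes were called from 24 hpl to 28 dpl against 0 h, where ctbp2a at 10 dpl was gained (adjusted p = 0.047), and against naïve 7 at 0 h and 4 at 28 dpl. The numbers did not pair retinas beyond their experiment, since deviations of same-numbered retinas correlated over 0.1 in 1 of 168 pairs (median −0.01). Counts over all genes without the experiment term were 763 in place of 1296 at 10 dpl, 842 for 1722 at 14 dpl, 489 for 1056 at 28 dpl, 1086 for 1643 from 5 to 10 dpl, 943 for 1497 from 24 to 36 hpl, 5 for 8 from 10 to 14 dpl and 35 for 105 from 14 to 28 dpl. DESeq2 gave 37 and 195 for the last 2 steps, and library totals and limma 14 and 4 for 10 to 14 dpl. Experiment 1 alone gave 689 at 10 dpl, 664 at 14 dpl, 680 at 28 dpl, 4033 for 6141 at 36 hpl and 2070 for 4161 at 5 dpl against 0 h, and 810, 775 for 1647, 1107 for 1765, 754 and 203 for the steps to 36 hpl, 72 hpl, 5, 10 and 28 dpl. Experiment 2 alone gave 757, 920 and 487 at 10, 14 and 28 dpl, and 786, 907, 834, 2 and 11 for the steps to 36 hpl, 72 hpl, 5, 14 and 28 dpl. With library totals the share of higher genes among all calls was 36.3% in place of 64.5% at 14 dpl, 37.5% for 58.4% at 28 dpl, 56.03% for 71.2% at 10 dpl, 61.9% for 51.8% at 24 hpl, 27.5% for 45.8% from 5 to 10 dpl, 40.3% for 53.01% from 36 to 72 hpl and 51.3% for 39.05% from 14 to 28 dpl, and with equal totals 78.8% for 49.6% at 0 h and 83.8% for 52.8% at 28 dpl against naïve. The median of all genes moved with library totals by 0.11 and 0.10 at 24 and 36 hpl, by −0.15 and −0.11 at 14 and 28 dpl and by −0.12 from 5 to 10 dpl, and the ribbon synapse genes with it. The cause of these changes was not tested.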
